A study of Mus musculus with 6 samples.

Results

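This account covers 42 genes for regulators of pre-mRNA splicing, taken by symbol from the 48709 genes of a table of embryonic mouse heart RNA. The members are 13 regulators with restricted expression or known roles in muscle and other tissues, the 3 polypyrimidine tract binding (PTB) genes, 12 genes for serine/arginine-rich (SR) and Tra2 proteins, 6 hnRNP genes and 8 other RNA-binding regulators. All 42 symbols were found, in 43 rows, since Nova2 has a second identifier that is listed at 0 in every library. Hearts came from C57BL6/J embryos of 2 genotypes with 3 polyA libraries each. Control embryos were RBPMS flox/flox RBPMS2 flox/flox littermates. Double knockouts had the same 2 pairs of floxed alleles and were also positive for the XML Cre transgene, for deletion in cardiomyocytes. Rbpms and Rbpms2 encode related RNA-binding proteins. Both genotypes carried floxed alleles and only the knockouts carried Cre. No group had Cre without the floxed alleles. The sources used here give neither the age of the embryos nor the promoter behind the Cre, and they do not say whether the libraries are from different embryos. The p-values therefore reflect only how much these 6 libraries vary. The effect of Cre itself and that of the deletions cannot be told apart.

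Splicing regulators bind short sequences in exons and introns and promote or block the use of nearby splice sites. MBNL proteins act largely against CELF proteins, and the balance between both families shifts as the heart matures. RBM20 represses exons of titin and of calcium-handling genes, RBM24 promotes inclusion of muscle exons, PTB proteins block exons through pyrimidine-rich tracts, and SR and hnRNP proteins act on exons in most cells. The table gives 1 sum of reads per gene. It therefore measures how much transcript of each regulator was present, and neither its isoforms nor the splicing of its targets.

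The deposited values are normalised read counts that summed to between 19770390 and 20215282 per library. Rbpms lay at 3551 to 3956 in controls and at 670 to 721 in double knockouts, and Rbpms2 at 2444 to 2716 and at 1257 to 1676, both in the direction of the labels. Tnnt2, a defining gene of cardiomyocytes, lay at 49815 to 52093 in controls and at 44660 to 46568 in knockouts (log2 fold change -0.17, limma adjusted p = 0.264). Both libraries numbered 3 stood apart by their sex-linked genes: Xist was at 6 and 20 there and at 19501 to 25229 in the other 4. Deviations from the gene mean also followed GC content, with Spearman's rho across genes of 0.27, 0.20 and 0.39 in controls 1 to 3 and of 0.10, -0.17 and -0.58 in knockouts 1 to 3, so that GC content and genotype cannot be told apart. Because whole hearts were used, fewer cells of a type and less RNA per cell cannot be told apart either. Markers of some cell types differed between genotypes. The summed level of 6 smooth muscle and mural markers was 12581 to 13759 in controls and 5832 to 9773 in knockouts. Of these 6, 1 was past the test (Cnn1, lower). Tagln and Cnn1 held most of this sum, with means of 5811 and 3403.5 over all libraries. Pdgfrb and Kcnj8 lay above 0 (log2 fold changes 0.16 and 0.81) and Tagln, Myh11 and Rgs5 below it (-0.59, -0.62 and -0.32). The 10 cardiomyocyte markers summed to 554613 to 583212 and to 467757 to 516534, with 2 of 10 past the test (Myh6 and Myl7, both lower). The mean of Myh6 was 139844 in controls and 79505 in knockouts. Myh7, Myl2 and Nppa lay above 0 (log2 fold changes 0.02, 0.04 and 0.13). Tnnt2, Actn2, Tnni3, Ryr2 and Nkx2-5 lay below 0 without passing the test. Endothelial markers summed to 17185 to 20790 and to 18663 to 22412, with 1 of 6 past the test (Emcn, higher), and none of 7 fibroblast markers passed (21331 to 29756 and 19506 to 38602). Acta1, on the skeletal muscle list, was at 0.202 times and Ptprc, on the macrophage list, at 2.46 times its control mean. Each was the 1 gene of its list past the test. Of the other skeletal muscle genes, Myh3 was at 21 to 37 over all libraries (log2 fold change 0.37). Myod1, Myog, Myf5 and Pax7 were at 0 to 5. Ptprc was at 12 to 15 in controls and 30 to 35 in knockouts. Cd68, Lyz2, Csf1r and Adgre1 were at log2 fold changes of -0.06, 0.01, 0.52 and 0.48. The 5 erythroid markers summed to 36465 to 99596 and to 77052 to 109766, with none past the test. The part of these cell types in the values of the splicing regulators was not tested.

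Few of these regulators passed the adjusted threshold. With limma on log2(value + 1), at a Benjamini-Hochberg adjusted p under 0.05 over all genes tested, 2 of 42 members rose in the double knockout, Mbnl1 and Ptbp3, and 1 fell, Khdrbs3. All 42 had a mean of at least 1 in 1 genotype and entered the test. Among all 26747 genes tested 4.86% were called, 2.31% higher and 2.55% lower, and among those with a mean of at least 50 the share was 7.92%, so the members' 7.14% was near the background. The knockout mean was 1.35 times the control mean for Mbnl1, 1.36 times for Ptbp3 and 0.73 times for Khdrbs3. The median log2 fold change, double knockout minus control, was 0.10 over the members and 0.02 over all genes tested. It was 0.01 over the members and 0.03 over all genes tested after each library's trend with GC content and length had been taken out. An unadjusted limma p under 0.05 was met by 13 of 42 members, against 5008 of all 26747 genes tested. With a mean of at least 50 it was met by 12 of 37 members, against 3711 of 13805 genes. In 18 of 42 members the libraries of the genotypes did not overlap, 13 higher and 5 lower in the knockout. Over all genes tested the share without overlap was 21.7%, and among genes with a mean of at least 50 it was 31.0%, against 17 of 37 members at that level.

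**Figure D1:**
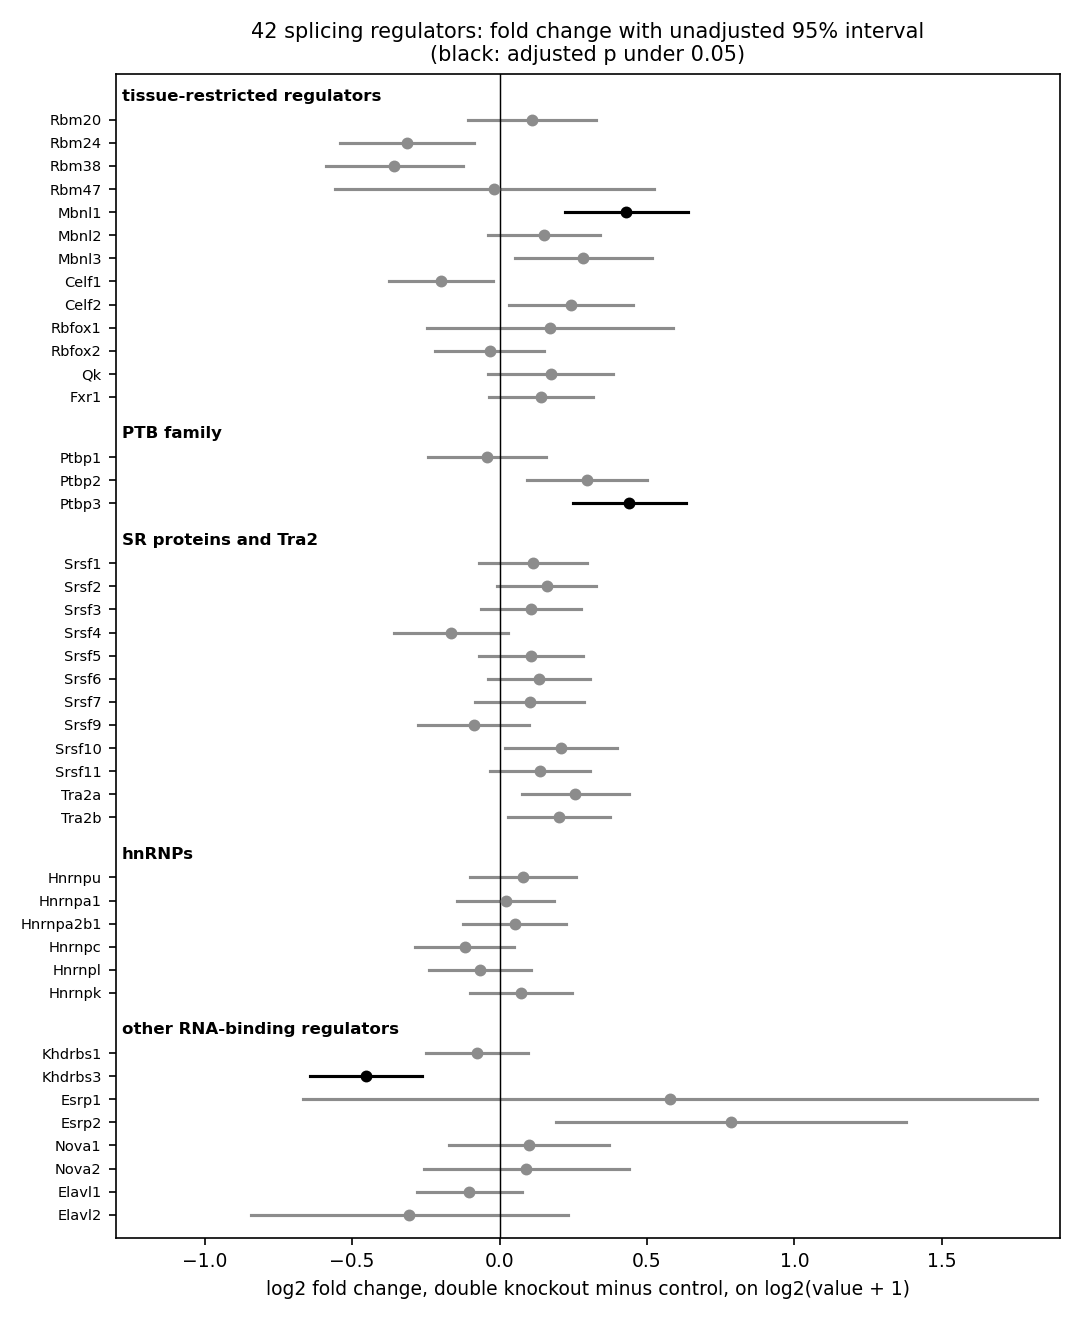
Log2 fold change (double knockout minus control, on log2(value + 1)) of the 42 members by class, with the unadjusted 95% interval from limma as a bar (3 libraries per genotype). Black marks the 3 members past the adjusted threshold, with Mbnl1 and Ptbp3 right of 0 and Khdrbs3 left of it; the wide bars belong to members with few reads such as Esrp1.

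The precision of the test limits what could have been missed. Of the 34 members with a mean of at least 50 that did not pass, 33 had a 95% interval for the fold change that lay wholly within 1.5-fold in either direction. At the median these intervals reached 0.18 on the log2 scale to either side of the estimate. The intervals are not adjusted for the number of genes, and 25 of the 34 held 0.

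Mbnl1 encodes muscleblind-like 1, which promotes adult splicing patterns in heart and skeletal muscle. Its normalised read counts were 890, 1042 and 940 in controls 1 to 3 and 1250, 1158 and 1474 in double knockouts 1 to 3. Every knockout library lay above every control library, with the highest value in knockout 3. The means were 957 ± 77.5 and 1294 ± 163 (SD, n = 3 libraries each), which differ by 0.43 ± 0.10 on the log2 scale (SE; limma adjusted p = 0.0152). The gene lies at chr3:60472830-60629750 on the plus strand (mm10), and the gene models that overlap it on the same strand had means of at most 1.83. With the GC and length trend removed the log2 fold change of Mbnl1 was 0.28 (limma adjusted p = 0.0227).

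The other muscleblind genes lay higher in the knockout on average without passing the test. Mbnl2 was at 1894, 1969 and 1774 in controls and at 2042, 1911 and 2326 in knockouts, which overlap (log2 fold change 0.15, limma adjusted p = 0.387). The X-linked Mbnl3 was at 272, 294 and 254 in controls and at 353, 338 and 308 in knockouts (log2 fold change 0.28, limma adjusted p = 0.163). Its libraries did not overlap between genotypes, and after removal of the GC and length trend it was at 0.14 (limma adjusted p = 0.510). Celf1, which had more reads than Celf2 and encodes an antagonist of MBNL proteins, was at 6382, 6723 and 6432 in controls and at 5818, 5240 and 5986 in knockouts. All 3 knockout libraries of Celf1 lay below all controls, with a difference of -0.20 on the log2 scale (limma adjusted p = 0.198). Celf1 passed the test once the GC and length trend was removed, at -0.26 (limma adjusted p = 0.00675). Celf2 pointed the other way, with 1341 to 1723 in controls and 1646 to 1976 in knockouts (log2 fold change 0.24, limma adjusted p = 0.194), and was at 0.11 with that trend removed.

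Within each library, the summed value of Mbnl1 to Mbnl3 over that of Celf1 was 0.479, 0.492 and 0.461 in controls and 0.627, 0.650 and 0.686 in knockouts. This ratio was 1.37 times as high in the knockout mean as in the control mean, and between 1.34 and 1.40 times as high with each library left out in turn. It does not depend on how libraries are scaled, but it is not per length and leaves out Celf2, which lay higher in the knockout on average. The GC trend was not removed from it, and its genes differ in GC content (39.7%, 49.3% and 39.8% for Mbnl1 to Mbnl3, 46.6% for Celf1). This ratio was chosen after the values of its genes were known, so it is a description with no test.

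**Figure D2:**
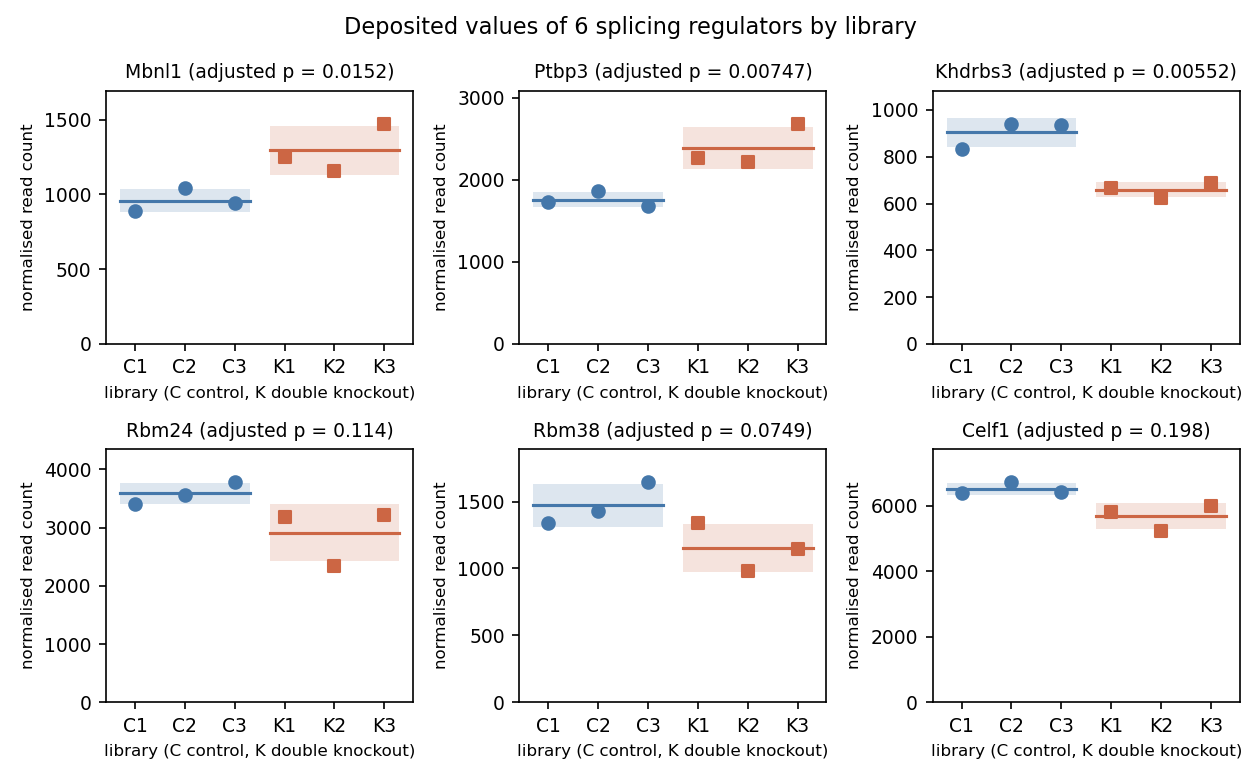
Normalised read counts of 6 members in each of 3 control (C, circles) and 3 double knockout (K, squares) libraries, with the mean as a line and 1 SD as a band. Mbnl1 and Ptbp3 are higher in all knockout libraries and Khdrbs3 is lower in all of them, while Rbm24 and Rbm38 spread more widely, with knockout 2 lowest for both.

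Ptbp3 encodes a PTB protein known from blood-forming cells. It was at 1730, 1858 and 1676 in controls and at 2259, 2219 and 2683 in knockouts. Every knockout library lay above every control, again with the highest value in knockout 3. The means were 1755 ± 93.5 and 2387 ± 257 (SD, n = 3), a difference on the log2 scale of 0.44 ± 0.09 (SE; limma adjusted p = 0.00747). Ptbp3 lies at chr4:59471868-59549364 on the minus strand (mm10). With the GC and length trend removed its log2 fold change was 0.27 (limma adjusted p = 0.00795).

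Ptbp1, the broadly expressed PTB gene, was at 3657, 3891 and 3612 in controls and at 3680, 4102 and 3119 in knockouts. These ranges overlap, and the 95% interval of its log2 fold change ran from -0.24 to 0.16. Ptbp2, the form known from neurons and developing muscle, was at 1508, 1721 and 1453 in controls and at 1807, 1773 and 2180 in knockouts. Its libraries did not overlap, and its difference was 0.30 on the log2 scale (limma adjusted p = 0.0916). Without a filter on low values Ptbp2 passed (limma adjusted p = 0.0361), and with the trend in GC and length removed it was at 0.09 (limma adjusted p = 0.444). A gene model within Ptbp2 on the same strand, Gm42664, had a mean of 155 and rose by 0.57 on the log2 scale (limma adjusted p = 0.0402). Another model that overlaps Ptbp2 on that strand, Gm43300, had a mean of 94.0 and did not pass (log2 fold change 0.61, limma adjusted p = 0.0704). The ratio of Ptbp3 to Ptbp1 was 0.473, 0.478 and 0.464 in controls and 0.614, 0.541 and 0.860 in knockouts, so that knockout 3 lay far above the other knockouts.

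Khdrbs3 encodes SLM2 (also T-STAR), a KH-domain splicing factor of the STAR family that is best known in brain and testis. It was at 833, 942 and 937 in controls and at 666, 624 and 689 in knockouts. The genotypes did not overlap, and the knockouts lay close together. The means were 904 ± 61.5 and 659.7 ± 33.0 (SD, n = 3), a difference on the log2 scale of -0.45 ± 0.09 (SE; limma adjusted p = 0.00552). It lies at chr15:68928420-69101211 on the plus strand (mm10). With the GC and length trend removed the difference was -0.56 (limma adjusted p = 0.000384). Its family member Khdrbs1 (Sam68) was at 4687, 4889 and 4863 in controls and at 4723, 4247 and 4749 in knockouts, which overlap, with a 95% interval of the log2 fold change from -0.25 to 0.10. The ratio of Khdrbs3 to Khdrbs1 was 0.178, 0.193 and 0.193 in controls and 0.141, 0.147 and 0.145 in knockouts. This ratio and that of Ptbp3 to Ptbp1 each hold a member called in these same libraries, so they are descriptions with no test.

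**Figure D3:**
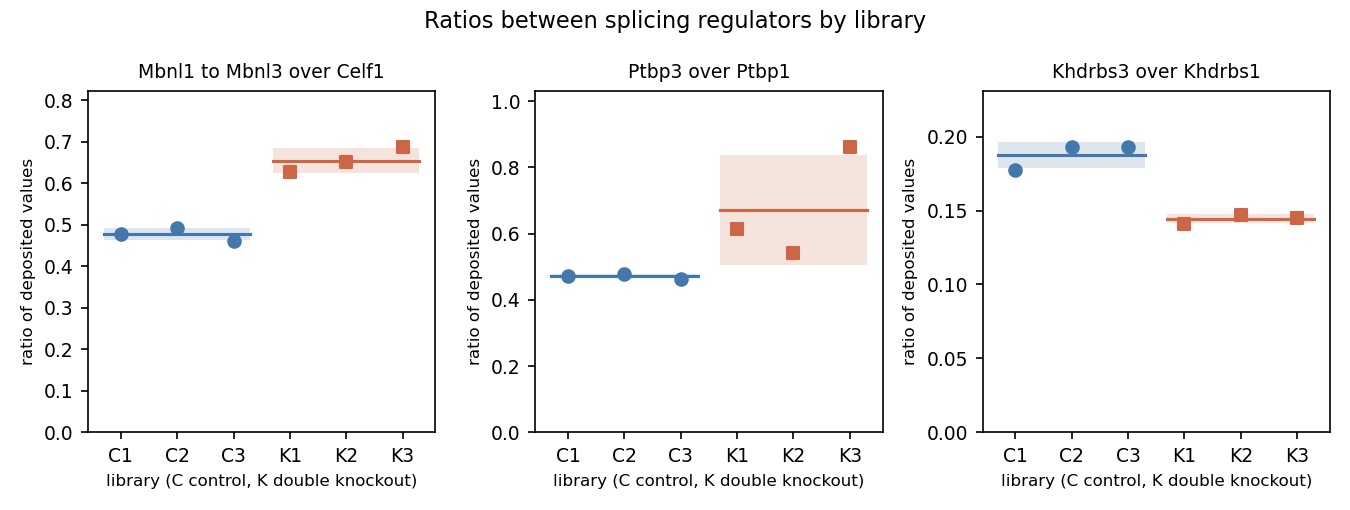
Ratios of deposited values within each of 3 control (C, circles) and 3 double knockout (K, squares) libraries, with the mean as a line and 1 SD as a band. The MBNL to Celf1 and Khdrbs3 to Khdrbs1 ratios form tight groups that do not overlap, while Ptbp3 over Ptbp1 spreads from 0.541 to 0.860 among knockouts. Each ratio holds a member called in these same libraries, so the separation is no further test.

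Leaving out single libraries lost these calls to different degrees. Over all genes tested, the 1299 calls fell to 481 without control 1, 420 without control 3 and 496 without knockout 3. Calls numbered 976 without control 2, 1253 without knockout 1 and 1207 without knockout 2. With each library left out in turn, log2 fold changes ran from 0.33 to 0.51 for Mbnl1 and from 0.35 to 0.49 for Ptbp3. For Khdrbs3 they ran from -0.51 to -0.41. The call of Khdrbs3 was lost without control 3 (limma adjusted p = 0.0623). The calls of Mbnl1 and Ptbp3 were each lost without control 1, without control 3 or without knockout 3, with limma adjusted p up to 0.138 for Mbnl1 and up to 0.0809 for Ptbp3. They were also lost without limma's robust option, at adjusted p = 0.110 and 0.0694, while Khdrbs3 held (adjusted p = 0.0456) and 1.31% of all genes tested were called. That option sets how far genes with unusual spread affect the moderation of variances. Within libraries 1 and 2 alone, which share the Xist pattern, the log2 fold changes were 0.32 for Mbnl1, 0.32 for Ptbp3 and -0.46 for Khdrbs3, and none of the 42 members passed (7 had an unadjusted limma p under 0.05; 0.137% of all genes tested were called). Between the 2 libraries numbered 3, with no replicate, the differences were 0.65, 0.68 and -0.44. The risers thus differed more between libraries numbered 3 than between the others, and Khdrbs3 by about the same amount.

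**Figure D4:**
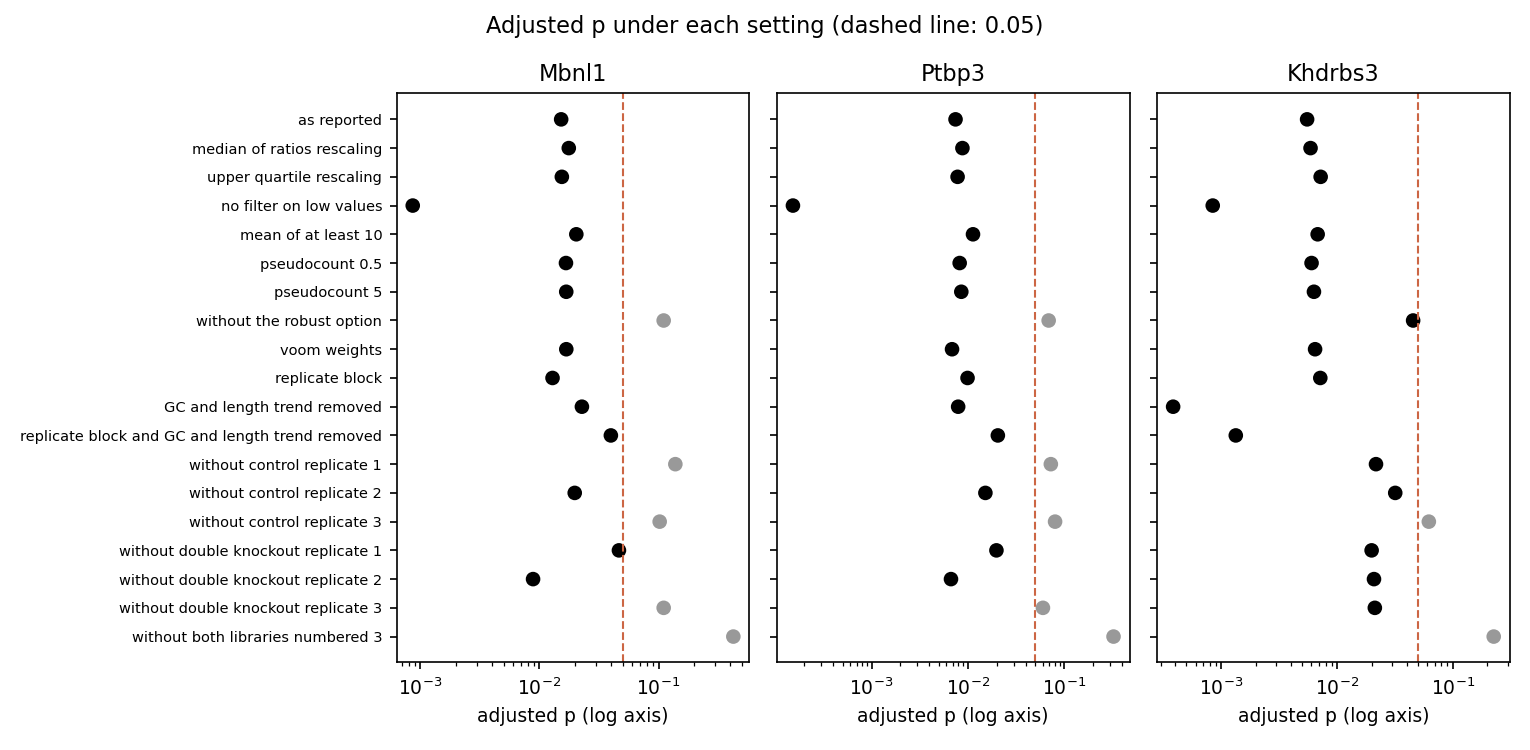
Adjusted p (limma, log axis) of the 3 called members under the reported setting and 18 alternatives; the dashed line is 0.05 and grey points lie above it. Khdrbs3 passes in 16 of 18 alternatives, and Mbnl1 and Ptbp3 in 13 of 18 each.

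Because the deleted proteins recognise RNA with a pair of CAC triplets set a few bases apart, a 30-base stretch with the most CAC is shown for each called member, the first where stretches tie, as they do for Mbnl1 and Khdrbs3. It comes from the longest protein-coding transcript in GENCODE M21 (GRCm38, the assembly of mm10), read 5′ to 3′ on the transcript's strand, with every CAC in capitals.
Mbnl1: catcCACcccCACACttaaaaaCACagtta
Ptbp3: cCACACcaagttttaCACtgaagtttCACc
Khdrbs3: gacccctccttCACgCACgccctgcgcttg
The Mbnl1 stretch lies in coding exon 3 of 10 (chr3:60595627-60595656), that of Ptbp3 in the 3′ UTR in exon 14 of 14 (chr4:59472602-59472631), and that of Khdrbs3 in the coding part of exon 1 of 9 (chr15:68928794-68928823). Neighbouring CAC triplets separated by 1 to 12 bases, searched on the transcript's strand only, were found in 96.9% of 17032 protein-coding genes tested, at a median of 2.55 pairs per kb of transcript. The 42 members had a median of 1.62 pairs per kb. Mbnl1 had 3.71, Ptbp3 0.875 and Khdrbs3 2.12 pairs per kb, so the called members lay on both sides of the median of all genes. These matches describe letters in the transcript and are not evidence of binding.

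The muscle regulators Rbm20, Rbm24 and Rbm38 were well expressed and varied among the knockouts; as for every member, their values are given whatever their size. Rbm24 was at 3411, 3562 and 3780 in controls and at 3185, 2343 and 3208 in knockouts. All knockouts lay below all controls, with knockout 2 far below the rest, and the log2 fold change of -0.31 did not pass (limma adjusted p = 0.114). Rbm24 passed without a filter on low values (limma adjusted p = 0.0117). Its paralog Rbm38, a p53 target that also controls splicing and RNA stability, was at 1337, 1430 and 1646 in controls and at 1339, 978 and 1143 in knockouts. Control 1 and knockout 1 of Rbm38 were nearly equal, and its difference was -0.36 on the log2 scale (limma adjusted p = 0.0749). It passed without a filter on low values (limma adjusted p = 0.00834), and when knockout 1 was left out, at -0.47 (limma adjusted p = 0.0315). After removal of the GC and length trend it was at -0.23, which is over 1.5 times smaller (limma adjusted p = 0.194). Rbm20 was at 3037, 3277 and 3240 in controls and at 3915, 2842 and 3654 in knockouts, so knockout 2 lay below all controls and the other knockouts above them. The 95% interval of the Rbm20 log2 fold change ran from -0.11 to 0.33.

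Qk, which encodes the STAR protein quaking, showed the same split among knockouts, with 8256 and 8380 in knockouts 1 and 3 and 6324 in knockout 2, against 6448, 7152 and 6618 in controls. It passed only without knockout 2 among the alternatives run, at 0.30 on the log2 scale (limma adjusted p = 0.0376), against 0.17 with all libraries (limma adjusted p = 0.378) and 0.03 with the GC and length trend removed. Fxr1, an RNA-binding protein needed in striated muscle, was at 4028, 4012 and 4078 in controls and at 4228, 4280 and 4870 in knockouts (log2 fold change 0.14, limma adjusted p = 0.394), and its difference was 0.01 with that trend removed. Rbfox2, the main RBFOX gene here, was at 6010 to 6751 in controls and at 5576 to 6455 in knockouts, and its interval ran from -0.22 to 0.15. Rbfox1 was low, at 40 to 49 in controls and 48 to 54 in knockouts (limma adjusted p = 0.682). Rbm47 was at 20 to 26 in all 6 libraries. Of the 13 tissue-restricted regulators, 1 thus rose and 0 fell (7.69% called), and 6 had an unadjusted limma p under 0.05. Called were 4.86% of all genes tested and 7.92% of those with a mean of at least 50, so this class was near the background. An unadjusted limma p under 0.05 was met by 5008 of 26747 genes tested, and by 3711 of the 13805 with a mean of at least 50.

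Genes for SR and Tra2 proteins, which mostly promote exon inclusion, lay slightly above 0. None of 12 passed the limma test, 3 had an unadjusted p under 0.05, and none passed with voom weights (4 unadjusted). Of the 13805 genes with a mean of at least 50, 7.92% were called and 3711 had an unadjusted limma p under 0.05. The median log2 fold change of the 12 SR and Tra2 genes was 0.12, and 10 of 12 lay above 0. The sum over the 12 genes was 44815, 44069 and 43663 in controls and 46765, 47322 and 51416 in knockouts. In 7 of 12 the knockouts lay wholly above the controls, and in 1, Srsf4, wholly below, where 11.1% of all genes tested lay wholly above and 10.6% wholly below (1984 and 2292 of the 13805 genes with a mean of at least 50). With the GC and length trend removed the median of the 12 genes was 0.03, and Srsf1, Srsf3 and Srsf5 lay just below 0 (-0.02, -0.01 and -0.02).

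Tra2a and Tra2b encode the paired Transformer-2 proteins, which bind purine-rich enhancers. Tra2a was at 2915, 2713 and 2584 in controls and at 3307, 3020 and 3496 in knockouts (log2 fold change 0.26, limma adjusted p = 0.103). The knockouts lay wholly above the controls. It passed without knockout 2, at 0.31 (limma adjusted p = 0.0462). Tra2b was at 2766, 2778 and 2702 in controls and at 2966, 3180 and 3344 in knockouts (log2 fold change 0.20, limma adjusted p = 0.188), and its difference was 0.06 with that trend removed. The 3 SR genes with the most reads showed small differences. Srsf3 was at 7058 to 7155 in controls and 7241 to 8028 in knockouts, Srsf6 at 6167 to 6472 and 6551 to 7340, and Srsf1 at 5691 to 5998 and 5807 to 7014. Their log2 fold changes were 0.11, 0.13 and 0.11, with limma adjusted p of 0.402 or more.

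The remaining SR genes were mixed. Srsf2 was at 3284 to 3315 in controls and 3533 to 3783 in knockouts (log2 fold change 0.16), Srsf10 at 2389 to 2629 and 2696 to 3267 (0.21) and Srsf11 at 3484 to 3675 and 3800 to 4121 (0.14). None of these 3 passed although their libraries did not overlap, with limma adjusted p of 0.213 to 0.385. Srsf5 (5448 to 6269 in controls, 5993 to 6508 in knockouts) and Srsf7 (2827 to 3115, 2869 to 3350) overlapped. The 2 members below 0 had few reads for this class. Srsf4 was at 544 to 571 in controls and 475 to 518 in knockouts (log2 fold change -0.16, limma adjusted p = 0.357), and Srsf9 at 733 to 813 and 702 to 771 (-0.09). Another gene model lies within Srsf4 on its strand, A930004J17Rik, with a mean of 290.0. On the strand opposite to Tra2a and Srsf2 lie Gm43980 (mean 279) and Mfsd11 (mean 613); the library was stranded, but the strand setting of the read counting is not among the sources used here.

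The hnRNP genes, whose proteins coat nascent transcripts and often oppose SR proteins, differed least. None of 6 passed the limma test, none had an unadjusted p under 0.05, and none passed with voom weights. Of the 13805 genes with a mean of at least 50, 7.92% were called and 3711 had an unadjusted limma p under 0.05. A lack of calls among only 6 genes therefore says little about the class. Their log2 fold changes ran from -0.12 to 0.08. Hnrnpa2b1 was at 18663 to 20716 in controls and at 19535 to 21935 in knockouts, with a 95% interval of the log2 fold change from -0.13 to 0.23. Hnrnpa1 was at 15853 to 16345 in controls and at 16202 to 16589 in knockouts, with an interval from -0.14 to 0.19. Hnrnpu (13740 to 15578 in controls, 14221 to 16318 in knockouts), Hnrnpk (14000 to 14120, 13718 to 15588) and Hnrnpl (6542 to 6733, 5875 to 6763) also overlapped. Hnrnpc was at 5896, 5830 and 5746 in controls and at 5124, 5601 and 5380 in knockouts, with all knockouts below all controls (log2 fold change -0.12, limma adjusted p = 0.457). Removing the GC and length trend brought Hnrnpc past the threshold, at -0.20 (limma adjusted p = 0.0367). Hnrnpa1 has many processed copies in the genome, and the sources used here do not say how reads shared with them were counted.

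Regulators known from epithelia and neurons were low. Esrp1, an epithelial splicing factor, was at 0 to 2 in controls and 1 to 4 in knockouts, too few reads for a comparison. Its paralog Esrp2 was at 12, 13 and 12 in controls and at 21, 24 and 21 in knockouts. These libraries did not overlap, but the log2 fold change of 0.78 did not pass at this depth (95% interval 0.19 to 1.38, limma adjusted p = 0.128). Of 7 epithelial markers 2 rose, Krt8 and Krt19, and the summed level of the list was 1675 to 1918 in controls and 2342 to 2683 in knockouts. Cells of the epicardium, a mesothelium, also express these keratins. None of 5 epicardial markers passed, with sums of 4658 to 5637 and 4332 to 5448 and a median log2 fold change of -0.21. These markers went both ways. Msln was at 34 to 83 in controls and 100 to 153 in knockouts (log2 fold change 1.08, limma adjusted p = 0.0843). Tbx18 was at 0.13 on the log2 scale, and Wt1, Upk3b and Upk1b at -0.32, -0.25 and -0.21. The defining epithelial markers Epcam and Cdh1 were at 2 to 18 and at 0 to 4 over all libraries. On the opposite strand Nfatc3 overlaps Esrp2, with a mean of 1444, so a small share of its reads would be enough to reach the level of Esrp2. The part of other cells or of Nfatc3 reads in the Esrp2 values was not tested.

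Nova1, a neuronal splicing factor, was at 166 to 196 in controls and 173 to 200 in knockouts (limma adjusted p = 0.717). Nova2 was at 76 to 86 and 80 to 99, and Elavl2, a neuronal ELAV gene, at 35 to 42 and 20 to 37. None of 9 neuronal and neural crest markers passed the test, and their summed level was 417 to 484 in controls and 347 to 468 in knockouts. The broadly expressed Elavl1 (HuR), a regulator of transcript stability, was at 1962, 2174 and 2031 in controls and at 1951, 1801 and 1992 in knockouts, with a 95% interval of the log2 fold change from -0.28 to 0.08.

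Per kb of annotated exon, controls held most transcript of the hnRNP genes, led by Hnrnpa1 (5119 ± 81.3 normalised reads per kb, SD, n = 3), Hnrnpa2b1 (3000.05 ± 157) and Hnrnpk (2177 ± 10.01). Srsf5 (1457 ± 105), Hnrnpc (1348 ± 17.4), Srsf6 (1303 ± 36.4) and Hnrnpu (1250 ± 82.9) followed, and neighbours among these 4 differed by less than the sum of their SDs. Of the tissue-restricted regulators Rbm24 had the highest level at 1027 ± 53.1 per kb, above Celf1 (771 ± 21.8) and Rbfox2 (769 ± 52.2), which did not differ beyond their spread. Rbm20 and Qk were level at 469 ± 19.0 and 473 ± 25.8 per kb. The called members were of middle or low level, with 247 ± 16.8 per kb for Khdrbs3, 235 ± 12.5 for Ptbp3 and 51.1 ± 4.14 for Mbnl1. The exon length of Mbnl1 (18.7 kb) sums many annotated transcripts, which lowers its level on this scale.

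The members' fold changes went with the GC content of their transcripts. Among 25 members under 45% GC, 21 lay above 0, against 7 of 17 at or above 45%. Spearman's rho between GC content and log2 fold change was -0.56 over the 37 members with a mean of at least 50, and -0.40 over 13773 genes at that level, as a description over genes that share the same libraries. Knockout 3, the library with the most negative GC trend, held the highest of the 3 knockout values in 26 of these 37 members and in 35.4% of all genes at that level. Both risers are poor in GC (39.7% for Mbnl1 and 38.9% for Ptbp3). Khdrbs3, at 41.4%, fell against that trend. GC content and length are those of the longest annotated transcript of any type. For Khdrbs3 that transcript has 2861 bases, against 1887 for its longest protein-coding one, so 41.4% may differ from the GC content of its coding transcript. Other members such as Srsf5 and Tra2a have the same limit. With the trend removed 2 members were higher, Mbnl1 and Ptbp3, and 3 were lower, Khdrbs3, Celf1 and Hnrnpc, where 5.91% of all genes tested were called (2.82% higher and 3.1% lower). Hnrnpc was lost again when the replicate block was fitted as well.

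**Figure D5:**
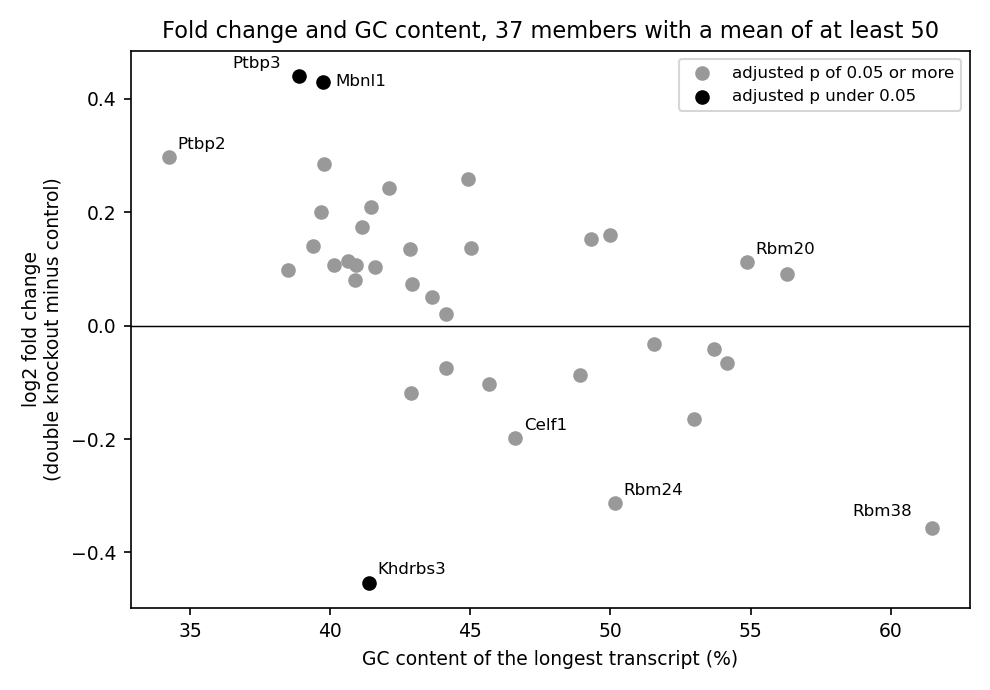
GC content of the longest transcript (%) against log2 fold change (double knockout minus control) for the 37 members with a mean of at least 50; black points passed the adjusted threshold. Members with low GC lie mostly above 0 and Rbm38, the richest in GC, lies below it, while Khdrbs3 lies far below other members of like GC content.

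Among 89 other genes of splicing, 4 rose and 0 fell (limma), a share below the 4.86% of all genes tested, and 31 had an unadjusted p under 0.05, against 3711 of the 13805 genes with a mean of at least 50. Clk1 and Clk4, kinases that phosphorylate SR proteins, were among the 4 that rose. Clk1 was at 2005, 1858 and 1812 in controls and at 2619, 2371 and 3133 in knockouts (log2 fold change 0.51 ± 0.10, SE, limma adjusted p = 0.00401). Clk4 was at 904, 869 and 818 in controls and at 1167, 1127 and 1331 in knockouts (0.48 ± 0.09, limma adjusted p = 0.0034). Both sets of libraries did not overlap, and with the GC and length trend removed the values were 0.36 and 0.34. The call of Clk1 was lost without control 3 (limma adjusted p = 0.0532) and without the robust option (adjusted p = 0.0767), and that of Clk4 held with each library left out. Without both libraries numbered 3 neither passed (limma adjusted p = 0.303 and 0.251).

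Their relatives Clk2 (987 to 1056 in controls, 993 to 1132 in knockouts) and Clk3 (653 to 736, 650 to 719) overlapped, at log2 fold changes of 0.07 and -0.01. Luc7l2, a partner of the U1 particle, was at 3126 to 3243 in controls and 3589 to 4770 in knockouts (0.35, limma adjusted p = 0.0413). Luc7l was at 1737 to 1870 and 2137 to 2316 (0.31, limma adjusted p = 0.035), but a processed pseudogene on the same strand, Gm16580, overlaps it and had a mean of 1226.5, so its reads may be divided between the rows. Each of these 2 calls was lost with 5 of the 6 libraries left out in turn, kept only without knockout 1 for Luc7l and without knockout 2 for Luc7l2. Luc7l and Luc7l2 also missed the threshold without the robust option (limma adjusted p = 0.0661 and 0.149) and, in a fit with the replicate block, at 0.0951 and 0.0588.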

How the data were processed

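Values deposited by the authors are treated as a score: whole numbers that look like reads per gene, divided in each library by a constant and then rounded. Of the whole numbers below 400, 3, 19 and 21 occur nowhere in control 2, control 3 and knockout 1, as rounding after scaling leaves. STAR 2.4.2a, featureCounts 1.5.0 and the build mm10 appear in the submitters' processing notes, beside DESeq2, DESeq and Trimmomatic, with no settings. Per the labels' protocols, RNA entered a stranded polyA preparation, read as single ends. A count model needs unscaled counts, so limma 3.58.1 (R 4.3.3) was fitted to log2(value + 1) over all 6 libraries, with variance trend and robust moderation, two-sided, for genes with a mean of at least 1 in 1 genotype. Fold changes on this scale understate those of low genes. GENCODE M21 held 99.3% of the 48709 identifiers; natural splines with 5 degrees of freedom on GC content and length, estimated on coding genes whose mean was 50 or more, gave the trend that 1 alternative removed. Voom weights, the replicate block, rescaled libraries, other filters and pseudocounts, and leaving libraries out were also tried. Named genes were every called member and, per class, the most abundant and most changed others, extended to all members. Members and lists were chosen with earlier results of these data known. The fit was tested on simulated data.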

Additional observations from a re-analysis of the deposited data

How the results depend on the processing

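The number of members called was 3, and 5 with the GC and length trend removed, 6 with no filter on low values, 1 without the robust option and 0 without both libraries numbered 3 (7 at an unadjusted limma p under 0.05); it ran from 0 (without control 3; 8 at an unadjusted limma p under 0.05) to 5 with each library left out in turn. The total over all genes was 1299, and 515 at an adjusted p under 0.01, 350 without the robust option, 38 without both libraries numbered 3 and 420 to 1253 with 1 library left out. For the 89 other splicing genes the count was 4, and 11 with the GC and length trend removed, 2 at an adjusted p under 0.01, 1 without the robust option, 0 without both libraries numbered 3 (12 at an unadjusted limma p under 0.05) and 1 to 4 with 1 library left out. Same-numbered libraries correlated at 0.05, 0.07 and 0.33 in their deviations, and control 1 correlated more with knockout 2 (0.17), so the numbers are not taken as pairs. With the replicate block 3 members, 2 other splicing genes and 1355 genes in all were called, and 8 other splicing genes with the block and the GC and length trend removed together. Of 42 members, 29 kept their direction in every alternative that gave a value, Mbnl1, Ptbp3 and Khdrbs3 among them. The cause of these changes was not tested. Low counts limit Esrp1, Esrp2, Elavl2, Rbm47 and Rbfox1, whose means were under 50.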
